A study of Mus musculus with 12 samples.

Results

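miR-191 and miR-425 are the 2 miRNAs of a small cluster in the mouse gene Dalrd3, and they were followed here in the blood of Tff3 knockout and wild-type mice. They were taken by exact ID, mmu-miR-191 and mmu-miR-425, from a microarray table of 710 mouse miRNAs, and both were found. Peripheral blood came from 6 mice labelled tff3 KO (3 females and 3 males) and 6 mice labelled wild type (3 females and 3 males), and total RNA with the small RNAs kept was hybridised to 1 array per mouse. The labels give no strain, age or allele, and the design text calls the mutants knock-downs where the labels call them knockouts. Tff3 encodes trefoil factor 3, a secreted peptide of mucous epithelia. The array carries no probe for its RNA, which left the genotype labels without a check.

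A miRNA is cut from a hairpin in a longer transcript, and 1 strand of the resulting duplex, the guide, is usually kept while the other, the passenger (marked with a star in the older IDs used here), is mostly lost. The guide pairs with messenger RNAs mainly through its seed, bases 2 to 8, and lowers their translation and stability. miR-191 and miR-425 are cut from a shared primary transcript. miR-191 is widely expressed and in common use as a reference for quantitative PCR, and in mouse erythroid cells its decline accompanies the last steps of red cell maturation. miR-425 is also used as a reference, and in human cells it represses the mRNA of atrial natriuretic peptide.

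The hairpins are shown because they are the cluster itself. In RefSeq's annotation of build GRCm38.p6, Mir191 lies at chr9:108568319-108568392 and Mir425 at chr9:108568777-108568861, both on the plus strand and 384 bases apart. Both lie within the span of Dalrd3, chr9:108567484-108572773. The tables used here give gene spans only, so exon and intron borders were not looked up. The start that the promoter table lists for Dalrd3, at base 108569892, lies beyond both hairpins. Capitals mark the mature arms, the 5p arm first, in the RefSeq sequences.
Mir191 hairpin: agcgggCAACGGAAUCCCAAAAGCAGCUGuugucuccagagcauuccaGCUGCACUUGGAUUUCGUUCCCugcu
Mir425 hairpin: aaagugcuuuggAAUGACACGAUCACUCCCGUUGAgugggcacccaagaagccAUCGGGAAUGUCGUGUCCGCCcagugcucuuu

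The mature sequences show which targets each could reach, and capitals now mark the seed. For the 2 cluster members, the IDs without a star were read as the 5p arms and those with a star as the 3p arms. The ID miR-489, also without a star, was read as miR-489-3p.
miR-191-5p: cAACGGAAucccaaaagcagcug
miR-425-5p: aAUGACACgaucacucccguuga
miR-489-3p: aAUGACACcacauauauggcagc
miR-191-3p (miR-191*): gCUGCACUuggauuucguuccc
miR-425-3p (miR-425*): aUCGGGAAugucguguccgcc
The 2 guides have unlike sequences, with 5 of 23 positions matching and no shared run longer than 4 bases. No other mature miRNA in the RefSeq table had the seed of miR-191-5p. The seed of miR-425-5p was shared with 1 other, miR-489-3p, whose gene lies on chromosome 6, and these 2 shared a first run of 8 bases.

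Summed intensity ran from 472962.75 to 814467.75 over the knockout arrays and from 391740.25 to 1111471 over the wild-type arrays. No 2 arrays held the same values, and pairs had rank correlations of 0.830 to 0.952. Precision throughout is limited by the number of arrays. The label of blood was checked on markers. The red cell miRNA miR-486 read at least 23065.5 on every array and miR-451 at least 736, and the neutrophil miRNA miR-223 read at least 628 and the lymphocyte miRNA miR-150 at least 1220. Not all blood markers were bright. miR-142-3p of all leukocytes read 8 to 144, miR-155 of lymphocytes 4 to 80 and miR-126-5p of platelets -16 to 160. Other markers of these cells read higher. For all leukocytes, miR-142-5p read 424 to 3753 and miR-146a 96 to 320. For lymphocytes, miR-342-3p read 364 to 1937, miR-181a 108 to 640 and miR-181b 40 to 200. For platelets, miR-126-3p read 128 to 364, miR-130a 632 to 2745 and miR-151-5p 636 to 1725. Markers from outside blood were also seen. The liver miRNA miR-122 ranged from 32 to 6922, miR-145 of smooth muscle from 44 to 1833 and miR-133a of skeletal muscle from 148 to 940. miR-143 of smooth muscle ranged from 60 to 784, and miR-206 of skeletal muscle was dim, at -4 to 148. In bulk blood, fewer cells of a type and less RNA per cell cannot be told apart.

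Both guides gave a strong signal in every mouse, and their passengers did not. miR-191 read 7962 at the lowest, 16790.1 at the median and 21969.2 at the highest over the 6 knockout arrays, and 12067, 16298 and 34508 over the 6 wild-type arrays. miR-425 read 4737, 11783 and 14319.2 in knockouts, against 6282, 9638.5 and 25550 in wild types. Knockout 1 was the lowest of all 12 arrays for both, and wild type 8, the array with the highest summed intensity, was the highest for both. The groups overlapped for both miRNAs. The medians of whole arrays lay between 72 and 188, so the lowest reading of either guide was far above a typical probe.

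As a share of the summed intensity of its array, miR-191 held 2.45% ± 0.61 across the knockouts, against 3.09% ± 0.61 across the wild types (mean ± SD, 6 arrays per group). miR-425 held 1.72% ± 0.45 across the knockouts, against 1.87% ± 0.39 across the wild types. miR-191 stood between the 6th and the 15th brightest row of its array and miR-425 between the 9th and the 23rd. By mean normalized level miR-191 ranked 8 and miR-425 ranked 11, with miR-140* and miR-2142 just above miR-191, miR-25 and miR-106b between the 2, and miR-19b and let-7d just below miR-425. Probes can label with unequal efficiency, so this order is one of signal and not of copy number.

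The passenger miR-191* read 36 to 204 in knockouts and 24 to 104 in wild types. The passenger miR-425* read 68 to 172 in knockouts and 44 to 132 in wild types. miR-489, which has the seed of miR-425, read 68 to 252 in knockouts and 104 to 160 in wild types. All 3 thus lay near the level of a typical probe in both genotypes.

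**Figure D1:**
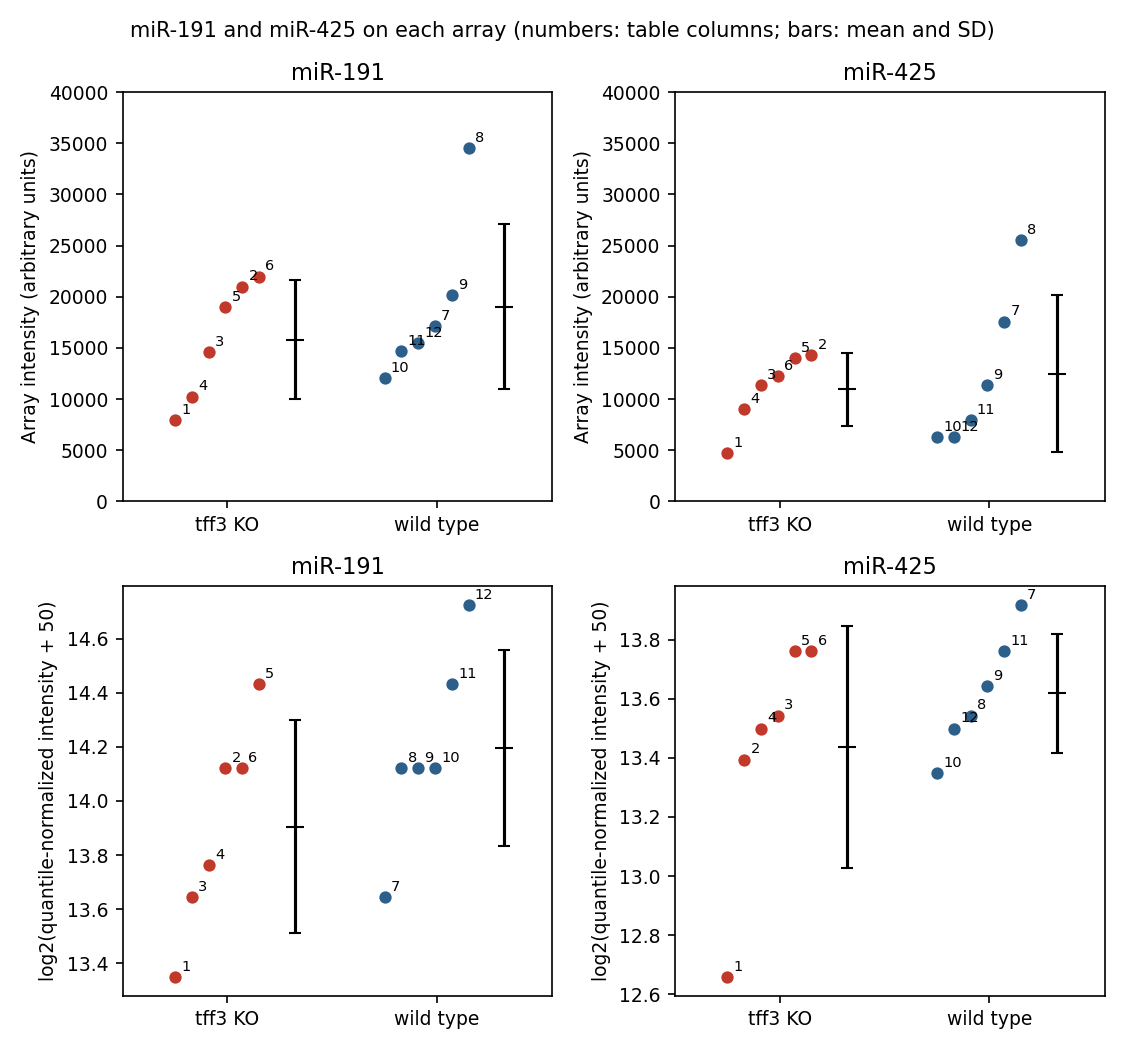
Array intensity (top, arbitrary units) and log2(quantile-normalized intensity + 50) (bottom) of miR-191 and miR-425 in 6 tff3 KO and 6 wild-type arrays. Points are arrays numbered by table column and ordered by value, bars give mean and SD; the groups overlap in all panels and knockout 1 is the lowest point for both miRNAs.

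The design sets knockout blood against wild-type blood. Intensities were quantile-normalized between arrays and taken as log2(value + 50), called the level below. The level of miR-191 averaged 13.91 ± 0.39 across the knockouts, against 14.19 ± 0.36 across the wild types (mean ± SD, 6 arrays per group). Its log2 difference was -0.29 with a standard error of 0.21 (limma's adjusted p = 0.737; exact two-sided permutation p = 0.273), and 5 of 6 knockouts lay below the wild-type mean. The level of miR-425 averaged 13.44 ± 0.41 across the knockouts, against 13.62 ± 0.20 across the wild types. Its log2 difference was -0.18 with a standard error of 0.19 (limma's adjusted p = 0.832; exact permutation p = 0.429), and 4 of 6 knockouts lay below the wild-type mean.

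Neither guide passed the threshold, an adjusted p of 0.05 over all 710 miRNAs. The 95% confidence interval of the knockout to wild-type ratio ran from 0.604 to 1.11 for miR-191 and from 0.670 to 1.16 for miR-425. limma called 0 of 710 miRNAs, a share of 0%, and 64 (9.01%) had an unadjusted p under 0.05, with neither guide among them.

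The passengers and the seed sharer did not pass either. For miR-191* the log2 difference was 0.14, its standard error 0.18, and limma's adjusted p 0.848. For miR-425* these were 0.05, 0.13 and 0.921, and for miR-489 they were -0.07, 0.15 and 0.890. The guides had negative and the passengers positive differences, all smaller than 2 standard errors.

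Both values moved when single arrays were left out. Without knockout 1 the difference was -0.18 for miR-191 and -0.03 for miR-425, and without wild type 12 that of miR-191 was -0.18. In the wild-type columns numbered 7 and 8, miR-191 averaged 13.88, close to the knockouts' 13.91, whereas in columns 9 to 12 it averaged 14.35. With columns 1 to 8 and 9 to 12 as 2 blocks in the fit, which sets all knockouts against wild types 7 and 8 alone, the difference was 0.02 for miR-191 with a standard error of 0.27. It was -0.29 for miR-425 with a standard error of 0.26. No label says what these blocks are. Both guides ranked columns 7 to 12 in the order of wild types 1 to 6 of the authors' processed table. There wild types 1 to 3 are males and 4 to 6 females. The columns were not assigned to samples on that ground, but by that order 7 and 8 would both be males. Block and sex may thus overlap, and the blocks' part in the values was not tested.

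**Figure D2:**
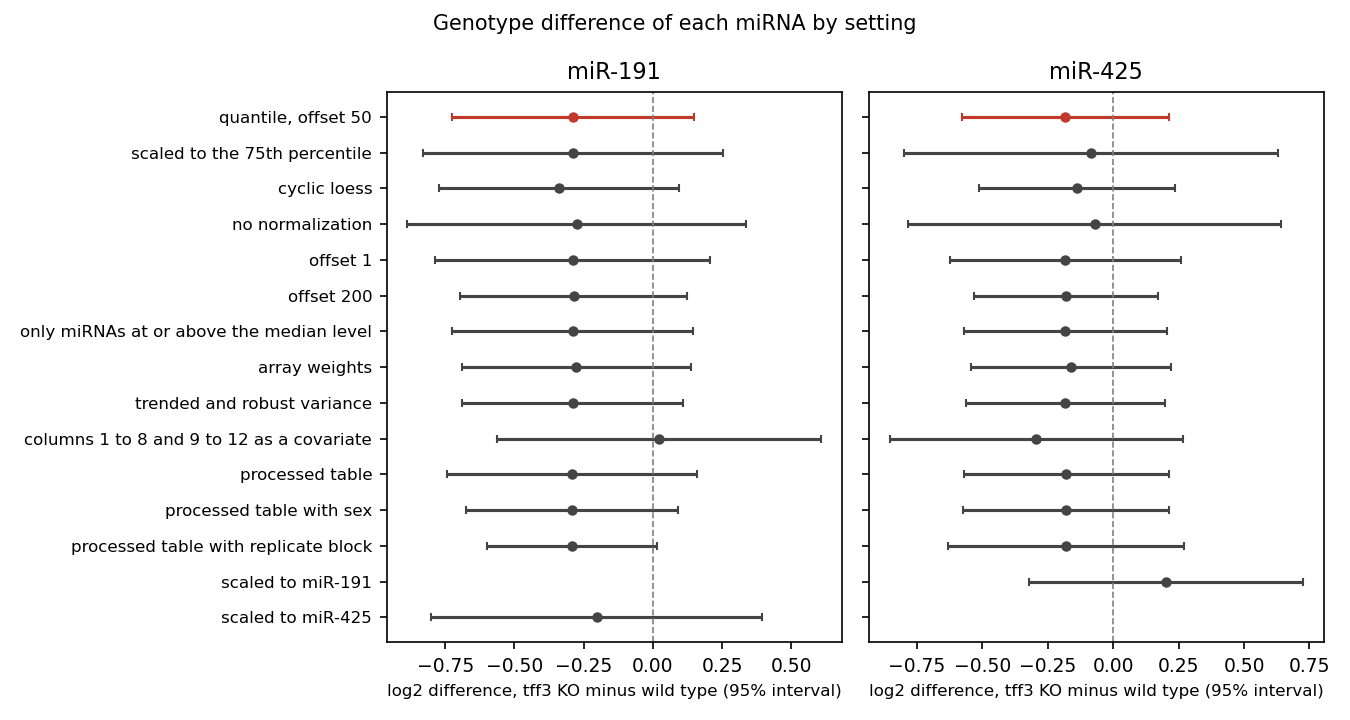
Log2 difference, tff3 KO minus wild type, of miR-191 (left) and miR-425 (right) under each setting, with its 95% confidence interval from limma; a miRNA is not shown where it was itself the scale. Every interval spans 0, and the estimate turns positive for miR-191 with column blocks and for miR-425 when arrays were scaled to miR-191.

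Sex could be set beside genotype in the authors' processed table, whose columns carry the samples themselves. In this table miR-191 was higher in females of both genotypes by values that did not pass the threshold. In knockouts it read 12193.3, 15507.3 and 20171.9 in females and 8872.3, 11069.2 and 15507.3 in males. In wild types it read 15507.3, 20171.9 and 23674.3 in females and 11069.2, 15507.3 and 15507.3 in males. Females and males overlapped in the knockouts, and in wild types they met at a shared value. Over both genotypes the mean of log2(value + 50) was 14.10 ± 0.35 for the females, against 13.63 ± 0.34 for the males (mean ± SD, 6 mice per sex). The log2 difference, female minus male with genotype in the fit, was 0.47 with a standard error of 0.18 (limma's adjusted p = 0.310).

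miR-425 showed no such order in both genotypes. It read 10029.3, 12193.3 and 12193.3 in knockout females and 5604.52, 9310.04 and 10376.4 in knockout males. In wild types it read 8872.3, 10029.3 and 12193.3 in females and 10376.4, 11069.2 and 13765.1 in males. The female minus male difference was 0.15 with a standard error of 0.18 (limma's adjusted p = 0.740), and -0.0041 without knockout 1. In this fit limma called 1 of 710 miRNAs (0.141%) for sex, which was neither guide. It was miR-122, the miRNA of hepatocytes, named after its values were seen, with a log2 difference of 3.44 and a standard error of 0.60 (limma's adjusted p = 0.0357). It read 157 at the lowest, 2959.12 at the median and 6513.17 at the highest in the 6 females, against 50.6, 62.2 and 283.5 in the 6 males, so the sexes overlapped. Leaving out 1 of the 12 mice at a time, it passed in 4 fits and not in 8, namely those without knockout 1, without knockout 2 or without any 1 wild type (limma's adjusted p from 0.0029 to 0.125). Its part in the sex difference of miR-191 was not tested. Without knockout 3 the number called was 5, namely miR-122, miR-342-3p, miR-192, miR-451 and miR-878-5p, and neither guide was among them. An unadjusted p under 0.05 was found for 87 (12.3%), miR-191 among them and miR-425 not.

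Whether the genotype difference depends on sex was tested as an interaction. For miR-191 the knockout minus wild-type difference was -0.32 in females and -0.27 in males, and the interaction was -0.05 with a standard error of 0.37 (limma's adjusted p = 0.984). For miR-425 it was 0.15 in females and -0.51 in males, and the interaction was 0.66 with a standard error of 0.33 (limma's adjusted p = 0.679). No interaction passed among the 710 miRNAs (0%), and 42 (5.92%) had an unadjusted p under 0.05. With sex in the fit, the genotype differences were -0.29 for miR-191 and -0.18 for miR-425, with adjusted p of 0.587 and 0.788 by limma.

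In the table before normalization only the knockout columns could be tied to a sex by their numbers. Among these, the level of miR-191 averaged 14.11 ± 0.34 for the females, against 13.70 ± 0.39 for the males (mean ± SD, 3 mice per sex). That of miR-425 averaged 13.67 ± 0.15 for the females, against 13.20 ± 0.47 for the males. Neither difference passed by limma, which called 0 of 710 (0%; 53 or 7.46% with an unadjusted p under 0.05). The labelled males are replicates 1 to 3 and the females 4 to 6 in both genotypes, so sex and the order of numbering cannot be told apart.

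**Figure D3:**
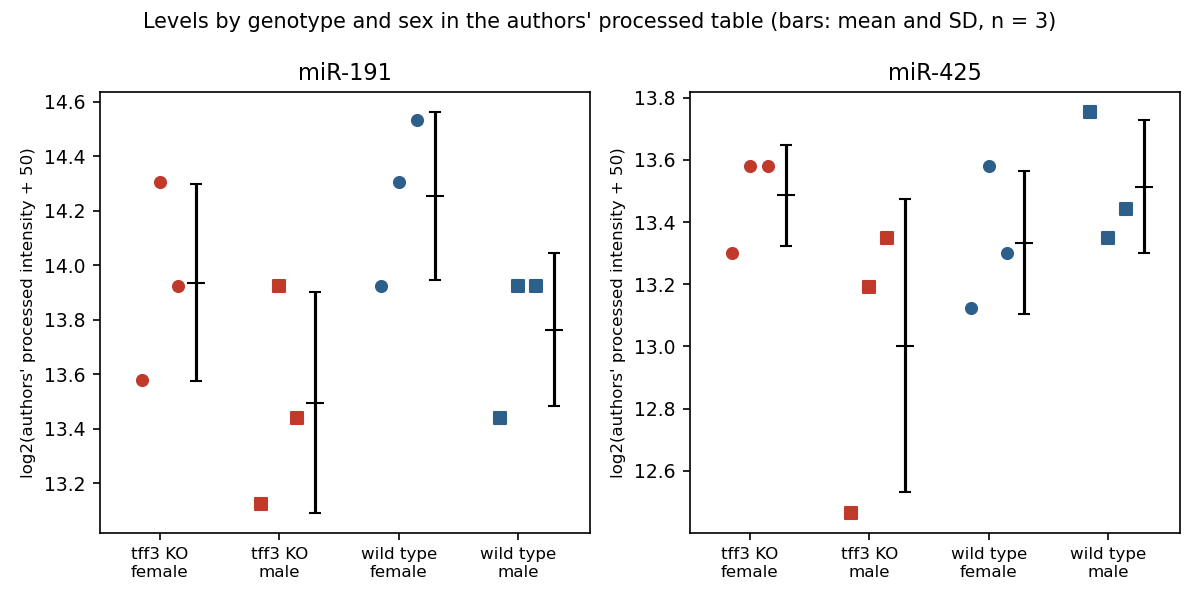
log2(authors' processed intensity + 50) of miR-191 (left) and miR-425 (right) in tff3 KO females and males and wild-type females and males, 3 mice each, with mean and SD. The female mean of miR-191 lies above the male mean in both genotypes, and that of miR-425 in knockouts but not in wild types.

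How closely the 2 guides moved together depended on the scale. Before normalization they rose and fell together over the 12 arrays, with Pearson's r = 0.846 (permutation p = 0.00066, 0.0072 adjusted by Benjamini-Hochberg over 12 relations) and Spearman's rho = 0.811 (permutation p = 0.0024, adjusted 0.029). Each also followed the summed intensity of its array, with r = 0.719 for miR-191 and 0.855 for miR-425, given as a description without a test. Without wild type 8 and knockout 1, the 2 arrays farthest from the median of miR-191, r was 0.613 (permutation p = 0.061, adjusted 0.121) and rho 0.673 (permutation p = 0.040, adjusted 0.119). Within the 6 knockouts r was 0.916 and rho 0.829 (exact permutation p = 0.0083 and 0.058, adjusted 0.033 and 0.140), and within the 6 wild types r was 0.860 and rho 0.886 (exact permutation p = 0.021 and 0.033, adjusted 0.0625 and 0.119).

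With arrays scaled to their 75th percentile, r was 0.818 (permutation p = 0.0012, adjusted 0.0072) and rho 0.741 (permutation p = 0.0077, adjusted 0.046). After quantile normalization r was 0.446 (permutation p = 0.150, adjusted 0.180) and rho 0.211 (permutation p = 0.507, adjusted 0.553). Without knockout 1 and wild type 12, r was 0.05, so what relation there was rested on those arrays. Within the 6 knockouts r was 0.784 and rho 0.662 (exact permutation p = 0.064 and 0.153), and within the 6 wild types r was -0.47 and rho -0.39 (exact p = 0.325 and 0.467). The difference between these 2 values was not tested. Among the 8 arrays in columns 1 to 8, r was 0.553 (permutation p = 0.147), and columns 9 to 12 held too few arrays, all wild types.

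The ratio of miR-191 to miR-425 on an array needs no scaling, and it varied by a factor of 2.53 over the mice. Set against its mean over the 12 arrays on the log2 scale, it ran from -0.44 in knockout 4 to 0.22 in knockout 6. Among wild-type arrays the lowest ratio was -0.66, in number 7, and the highest 0.67, in number 12. Wild types 7 and 8 were below the mean and wild types 9, 10, 11 and 12 above it, and the knockouts lay on both sides. The mean was -0.10 ± 0.25 across the knockouts, against 0.10 ± 0.47 across the wild types (mean ± SD, 6 arrays per group), so the genotypes differed by less than the spread within either.

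**Figure D4:**
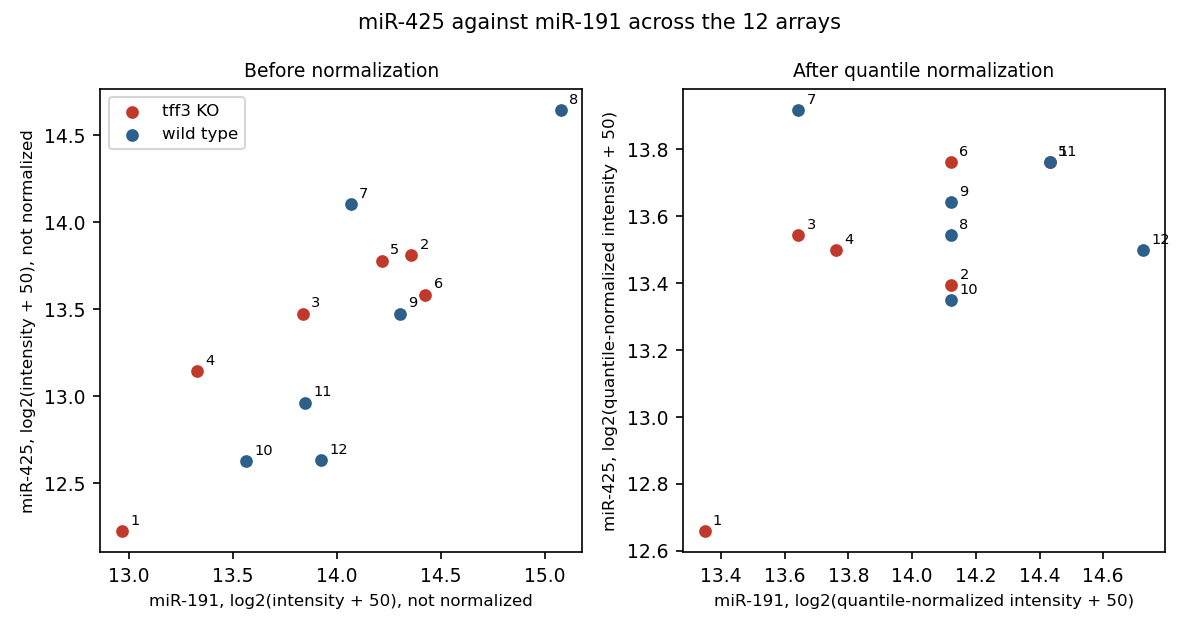
miR-425 against miR-191 on 12 arrays, as log2(intensity + 50) before normalization (left) and after quantile normalization (right), coloured by genotype and numbered by table column. The points follow a line on the left (r = 0.846) and scatter on the right (r = 0.446), where knockout 5 and wild type 11 lie on the same point.

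Quantile normalization gives each rank a fixed value, and this shows in such bright miRNAs. miR-191 took only 6 different levels on 12 arrays, and 5 arrays shared the level of 14.12. miR-425 took 8 different levels. Differences in intensity that keep the rank are not seen in these levels.

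The miRNAs whose levels were most like those of miR-191 included another reference miRNA and a red cell miRNA, but other red cell markers did not follow miR-191. Among the 354 others at or above the median level, the highest Pearson r with miR-191 over the 12 arrays were 0.850 for miR-210, which is induced by low oxygen and abundant in erythroid cells, and 0.831 for miR-423-5p, itself in use as a reference. They were followed by miR-342-3p of lymphocytes (0.819), miR-130b (0.743) and miR-27b (0.738). For miR-210, r was 0.789 within knockouts, 0.857 within wild types and 0.972 before normalization. Of the other red cell markers, miR-144 had an r of -0.73 with miR-191, miR-451 -0.53 and miR-486 -0.012. Lymphocyte markers other than miR-342-3p ran from -0.14 for miR-155 to 0.514 for miR-181a. The cluster partner of miR-191, miR-425, ranked 63 of 354. Before normalization the ranks were 1 for miR-210, 2 for miR-130b, 7 for miR-423-5p, 18 for miR-342-3p, 36 for miR-27b and 14 for miR-425.

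After quantile normalization miR-425 was most like a different set. Its highest r were 0.827 for miR-378, which lies in the gene of the coactivator PGC-1beta, 0.793 for miR-328, 0.764 for miR-150, which is abundant in mature lymphocytes, 0.763 for miR-676 and 0.726 for miR-1897-5p. For miR-150, r was 0.996 within knockouts and 0.438 within wild types. For miR-378 it was 0.977 within knockouts and -0.43 within wild types. miR-191 ranked 51 of 354. Before normalization these ranks were 57 for miR-378, 6 for miR-328, 7 for miR-150, 29 for miR-676, 88 for miR-1897-5p and 19 for miR-191. Which miRNAs were most like miR-425 thus depended on the scale. These correlations describe 12 arrays, and no test was made of them. After normalization the r of the level with log2 summed intensity was -0.21 for miR-191 and 0.17 for miR-425.

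Since miR-191 and miR-425 serve as references elsewhere, their spread over arrays was set beside that of 12 other miRNAs in such use. The SD of the level over all 12 arrays was 0.39 for miR-191 and 0.32 for miR-425. Among the 355 miRNAs at or above the median level, whose median SD was 0.32, these ranked 249 and 175 from the lowest. Among the 50 brightest, whose median was 0.38, they ranked 27 and 19. In the list of 12 the SD ran from 0.23 for miR-16 to 0.57 for miR-320.

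Before normalization the SD was 0.55 for miR-191 and 0.69 for miR-425, and the 12 ran from 0.41 for miR-93 to 0.75 for let-7a. The order of spread thus changed with the scale. miR-16, the steadiest of the 12 after normalization, had an SD of 0.64 before it.

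**Figure D5:**
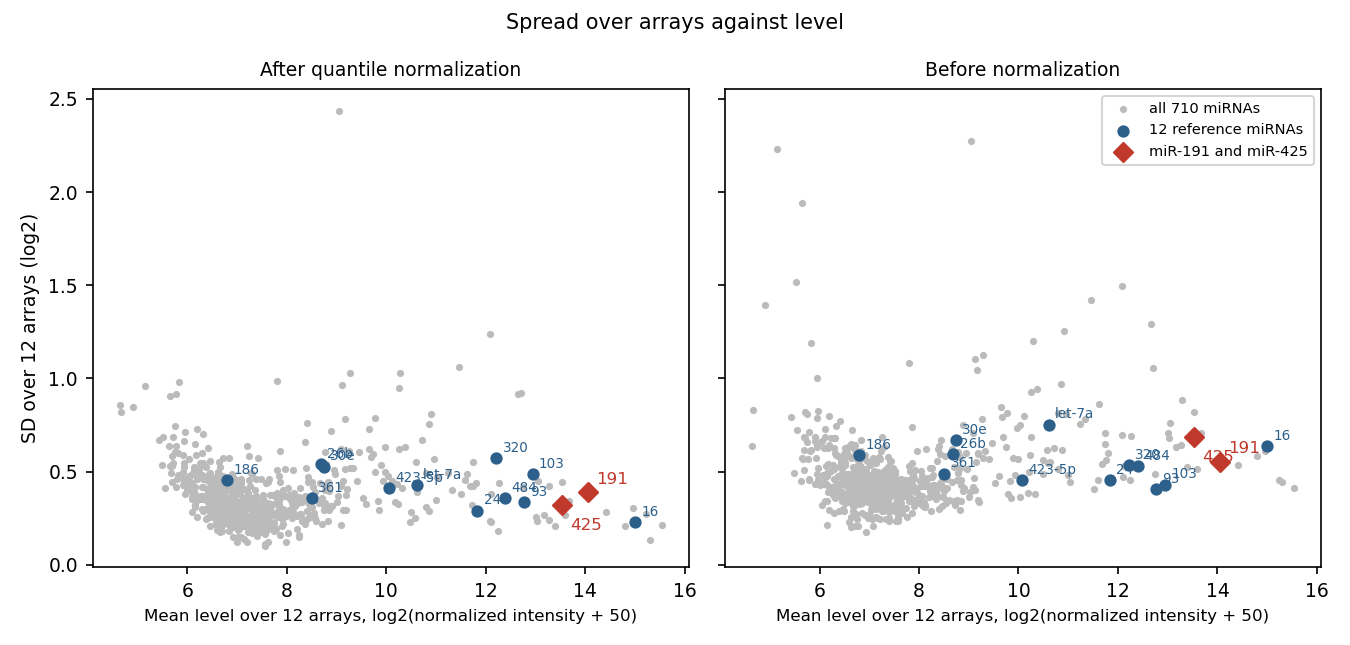
SD over 12 arrays (log2) against mean level of all 710 miRNAs after quantile normalization (left) and before normalization (right), with miR-191 and miR-425 as red diamonds and 12 other reference miRNAs in blue. Both lie within the cloud of equally bright miRNAs, with SDs of 0.39 and 0.32 on the left and 0.55 and 0.69 on the right.

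No miRNA of the reference list passed between genotypes. Of the 12, 8 had a negative difference, against 359 of all 710, and the median was -0.09, against -0.0015 over all. The differences ran from -0.51 for miR-103 to 0.31 for let-7a. miR-103, which lies in pantothenate kinase genes, was the only 1 of the 12 with an unadjusted p under 0.05 (limma's adjusted p = 0.500). Of all 710 miRNAs 64 (9.01%) had such a p, a share near that in the list. The 12 did not move as 1 group with miR-191. After normalization r with miR-191 was 0.831 for miR-423-5p and 0.636 for miR-93, but -0.92 for let-7a, -0.82 for miR-26b and -0.57 for miR-16. Before normalization all 12 had a positive r with miR-191, from 0.175 for miR-16 to 0.924 for miR-93.

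The table was also read as a user of either reference would read it. Each array was divided by its own miR-191 intensity relative to the mean, a factor that was lowest in knockout 1 (0.458) and highest in wild type 8 (1.98). The median log2 difference over all 710 miRNAs was then 0.22, against -0.0015 after quantile normalization, and 83.0% of the differences were positive, against 49.4%. Before normalization miR-191 itself differed by -0.27 with a standard error of 0.29. Dividing by it moves the other differences upward, so this shift is a property of the scale. limma called 0 of 710 miRNAs (0%). Of 49 (6.9%) with an unadjusted p under 0.05, 47 (6.62%) were higher and 2 (0.282%) lower in knockouts. The 2 lower ones, named after their values were seen, were miR-181a (-0.73, standard error 0.28) and miR-181b (-0.70, standard error 0.27), which are known for roles in lymphocyte development. After quantile normalization 31 (4.37%) were higher and 33 (4.65%) lower. Scaled to miR-191, miR-425 differed by 0.20 with a standard error of 0.25, beside the 0.22 of the median miRNA. Scaled to miR-425, the median over all miRNAs was 0.07, 61.5% of the differences were positive, and 14 miRNAs (1.97%) had an unadjusted p under 0.05. Before normalization miR-425 itself differed by -0.07 with a standard error of 0.34. limma again called 0 (0%), and miR-191 differed by -0.20 with a standard error of 0.28.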

How the data were processed

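The authors deposited 1 table of array intensities and 1 table of processed intensities. The first is background-subtracted but not normalized as its values show (282 of 8520, or 3.31%, lie below 0). Columns of the second all run from 1 to 45723 with medians of 99.7 to 104, and it was read as quantile-normalized. Its sorted columns were not equal throughout, with a largest gap of 258% between knockout 6 and knockout 1. Biotin was introduced by primer extension on the array, per the labels' protocols. Scanner and background method: not given in the sources used here. Knockout columns of the first table match the labels' numbers. Its wild-type columns, numbered 7 to 12, match no wild-type number in the labels, which run from 1 to 6. They were not assigned to samples by their values and were used as 6 wild types. The planned tests were run as designed, on log2(value + 50) by moderated linear models (limma 3.58.1, R 4.3.3; two-sided, Benjamini-Hochberg over 710 miRNAs), and tested on simulated data. Permutation tests of genotype were exact, over 924 arrangements of the 12 arrays. Those of the relation between the guides were exact for 6 arrays and used 100000 resamples for 8 or more. The authors' processed table, in the same fit, gave values by sex. The blood samples came from separate animals, per the labels' protocols. The miRNAs named are the 2 cluster members, their passengers, the seed sharer, a reference list of 12, blood cell markers, the 5 most correlated with each member and the neighbours in signal; the miRNAs called for sex, miR-181a and miR-181b were named after their values were seen. The members and lists were chosen with earlier results of these data known. Sequences and names come from RefSeq tables of GRCm38.p6. Figures were drawn with matplotlib 3.10.9.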

Additional observations from a re-analysis of the deposited data

Results flagged for a closer look

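Within each genotype, the levels of both guides, their passengers, miR-489 and the 12 reference miRNAs, and the ratio of miR-191 to miR-425, were searched for an array far from the other 5, where the gap to the nearest array, relative to the group's range, exceeded Dixon's critical value. This held in 3 of 36 groups (8.33%). Chance gives about 5% for independent groups of normal values. Here the groups share arrays and some levels are tied, so the rate by chance is not known. miR-425 stood at 12.66 in knockout 1, against 13.39 to 13.76 in the other 5 knockouts. miR-16, a red cell miRNA, stood at 15.63 in the same array, against 14.72 to 15.02 in the other 5. In wild type 9 miR-16 stood at 14.72, against 14.92 to 15.02 in the other 5 wild types.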

How the results depend on the processing

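The genotype difference of miR-191 was negative in 24 of 25 alternatives and that of miR-425 in 24 of 25, and neither passed in any (limma's adjusted p from 0.452 and 0.699 up to 1.00). The exceptions were 0.022 for miR-191 with column blocks and 0.20 for miR-425 scaled to miR-191, where the median of all miRNAs also shifted. Leaving out 1 array gave -0.40 to -0.18 for miR-191, -0.26 to -0.03 for miR-425, -0.023 to 0.078 for miR-425* and -0.13 to 0.0021 for miR-489. With column blocks miR-425* was at -0.091, and scaled to miR-191 miR-489 was at 0.16. The count called by limma was 1 without wild type 12, miR-181b at a log2 difference of -1.12 (adjusted p 0.0078), named after its values were seen, and 0 in every other alternative. The count with an unadjusted p under 0.05 was 39 after 75th-percentile scaling, 19 without normalization and 14 scaled to miR-425, and 49 to 80 without 1 array. The relation of the guides was r = 0.818 after 75th-percentile scaling and 0.846 with none. Without scaling both guides followed array brightness, and this was not looked at after 75th-percentile scaling. For shares of summed intensity, a setting added after the data were seen, r was 0.548 (permutation p = 0.071). The spread of miR-425 was 0.64 after 75th-percentile scaling and 0.69 with none. Without 1 sample, a setting also added later, the sex difference in the processed table was 0.39 to 0.56 for miR-191 and -0.0041 to 0.24 for miR-425, with 0 to 5 miRNAs called. Within knockouts it was 0.22 to 0.62 and 0.20 to 0.64. Over all miRNAs, samples of the same replicate number deviated together with correlations of -0.12 to 0.18. These mix many dim miRNAs and cannot decide whether the numbers pair the samples. With the number as a block in the processed table, the genotype difference of miR-191 was -0.29 with a standard error of 0.14. Without the block the standard error was 0.21, and with sex in place of the block it was 0.18. Each number has the same sex in both genotypes, so the block also takes up sex. limma's p for miR-191 with the block was 0.059 unadjusted and 0.467 adjusted. For miR-425 the difference was -0.18 (limma's adjusted p = 0.829), and 0 miRNAs were called. The cause of these shifts was not tested.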

Other observations

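Over the 12 arrays, markers of one blood cell type differed in how they ran with miR-191. Among the 4 erythroid miRNAs its r was -0.73 with miR-144, -0.53 with miR-451, -0.012 with miR-486 and 0.850 with miR-210. Among the 3 miRNAs found in all leukocytes it was -0.79 with miR-142-5p, -0.63 with miR-142-3p and 0.027 with miR-146a. It was 0.707 with miR-122, the miRNA of hepatocytes. Among the 5 lymphocyte miRNAs r with miR-191 ran from -0.14 for miR-155 to 0.819 for miR-342-3p, with 0.210 for miR-150. Their mean level had an r of 0.550 with miR-191 and 0.661 with miR-425. Among the 4 platelet miRNAs r with miR-191 ran from -0.042 for miR-126-3p to 0.505 for miR-151-5p. Their mean level had an r of 0.549 with miR-191 and 0.417 with miR-425. Among the 3 neutrophil and monocyte miRNAs r with miR-191 was -0.16 for miR-223, 0.398 for miR-27a and 0.686 for miR-23a. These values describe 12 arrays after quantile normalization, in which the levels of different miRNAs are not independent, and no test was made of them.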
